A study of Homo sapiens with 6 samples.

Results

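The comparison described here set 2 clones that carried TIP-1 shRNA 159 against 2 clones that carried TIP-1 shRNA 162, which are 4 of the 6 arrays of the study. All 4 were derived from MDA-MB-231, a widely used triple-negative breast cancer line, and expressed a short hairpin RNA (shRNA) directed at TIP-1, whose gene is TAX1BP3. The clones of a hairpin are independent, each was measured on a single Affymetrix Human Gene 1.0 ST array, and no technical replicates were made, so n = 2 per hairpin. Cells in RPMI with fetal bovine serum were detached with trypsin, seeded again and left overnight, and total RNA was then isolated. The 2 clones with control shRNA were not used. The question was what separates lines that share the depleted target. With 1 clone per array, the hairpin and the history of its particular clones cannot be told apart. The p-values measure the spread between the clones used, and 2 clones per hairpin limit their precision.

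TIP-1 is a small protein that consists almost entirely of a PDZ domain, the fold that grips the carboxyl ends of partner proteins. Because it lacks other domains, it can compete with scaffold proteins for partners such as beta-catenin. An shRNA lowers a transcript through the RNA interference machinery, and different hairpins against one transcript often differ in how much of it they leave. A clone also carries forward the state of the single cell that founded it.

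Values are the authors' normalized array signals on the log2 scale, where a difference of 1 is a 2-fold difference. All differences are shRNA 159 minus shRNA 162, so a negative one is higher with shRNA 162. A row (1 probe set of the array) passed when its Benjamini-Hochberg adjusted p from limma, two-sided and over all 21214 rows with a gene symbol, lay under 0.05. In the sentences below, the values with shRNA 162 come first, in the order clone 1 and clone 2, and n = 2 clones per hairpin throughout. The 4 arrays were alike in level, with medians of 7.87 to 7.90 and lower quartiles of 6.68 to 6.78. A signal under 6.78 is called dim here, since it was not shown to be above background, and a fold against a dim group is a fold in array signal. Markers of this line were bright and hormone receptors were dim: CD44 stood at 13.24 to 13.41 and VIM (vimentin) at 13.08 to 13.19 over the 4 clones, while ESR1 and PGR, the receptors of estrogen and progesterone, stood at 5.83 to 6.42. The luminal markers FOXA1, GATA3 and KRT19 lay between these, at 7.32 to 8.05. EPCAM, an epithelial adhesion molecule, differed between the hairpins, at 7.16 and 7.25 with shRNA 162 against 7.97 and 8.02 with shRNA 159 (difference 0.79, limma adjusted p = 0.00378).

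The TAX1BP3 signal was higher in the shRNA 159 clones. It stood at 9.85 and 10.01 with shRNA 162 and at 10.40 and 10.40 with shRNA 159. Both shRNA 159 clones lay above both shRNA 162 clones, by 0.47 on average (SE 0.09, limma adjusted p = 0.0257), so the shRNA 162 clones held 72.2% of the shRNA 159 level. The call rested on both shRNA 162 arrays. Without shRNA 159 clone 1 or 2 it was kept (limma adjusted p = 0.0414 and 0.0418), but without shRNA 162 clone 1 the difference was 0.39 (limma adjusted p = 0.189), and without clone 2 it was 0.55 (limma adjusted p = 0.0702). It was also lost when all rows of the table, those without a symbol included, were fitted together (limma adjusted p = 0.131). With 6 possible splits of the 4 clones, the exact two-sided permutation test cannot go below p = 0.333, the value it gave. Its row also names P2RX5-TAX1BP3, a readthrough transcript, and the sources of its signal cannot be told apart. Over all genes with a row of their own, 3.22% were higher with shRNA 159 and 3.32% with shRNA 162, the shares against which each list below is to be read. Among 17 measured TIP-1 binding partners, 2 were higher with shRNA 159 and 1 with shRNA 162 (1 and 0 without either shRNA 162 clone). LPP, a focal adhesion protein with a PDZ-binding end, was 9.69 and 9.76 against 10.97 and 10.62 (difference 1.07, limma adjusted p = 0.00495). It lies in the stretch of chromosome 3 from NCEH1 onward, described further on, where 73 of 149 genes were higher with shRNA 159. HTATIP2 (difference 0.56) and the phosphorylase kinase subunit PHKA1 (-0.41) also passed, while CTNNB1, the gene of beta-catenin, did not (12.11 and 12.05 against 12.14 and 12.16).

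Across the array, 1352 of 21214 rows passed (6.37%), 642 higher with shRNA 159 (3.03%) and 710 higher with shRNA 162 (3.35%). At an unadjusted p under 0.05, 4752 rows did. Of all tested rows, 40.1% had a difference above 0. After quantile normalization 755 rows passed on the shRNA 159 side and 579 on the shRNA 162 side, so the balance of directions depended on scaling. In all 1352 the clones of the hairpins did not overlap, which a pass with 2 clones per hairpin nearly requires. Their median absolute difference was 0.51, with 0.34 as the smallest. Most differences were therefore under 2-fold. Only 89 rows (0.42%) passed with a 2-fold difference or more, 56 higher with shRNA 159 and 33 higher with shRNA 162. Between single arrays the contrast was plain: 6 rows differed by 2-fold between the shRNA 162 clones and 1 between the shRNA 159 clones, against 99 to 106 between clones of different hairpins. The count of passing rows rested on the shRNA 162 clones, since it was 399 without clone 1 and 426 without clone 2, where the spread came from the shRNA 159 pair alone. It was 1456 and 1415 without shRNA 159 clones 1 and 2. The rows fitted mattered as much, since a fit over all 33297 rows of the table, which adds 12083 rows with no symbol, passed 65 rows, and a fit over the brighter rows passed 2289. The 30 genes named by size were picked for passing with large differences on these same arrays, so a refit gives them no independent support. Of the 30, 24 passed in the fit over all rows as well. The rows of TENM2, LRRN1, TMEM108, SLC25A37, TC2N and ARRDC4 named by size did not. Of the 166 named rows besides TAX1BP3, 131 lost their call there, none with a change of direction. In that fit the contractile, matrix and interferon counts given further on were 1, 1 and 2, and those of hypoxia and glycolysis, cholesterol and proteases on their main side were 0.

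**Figure D1:**
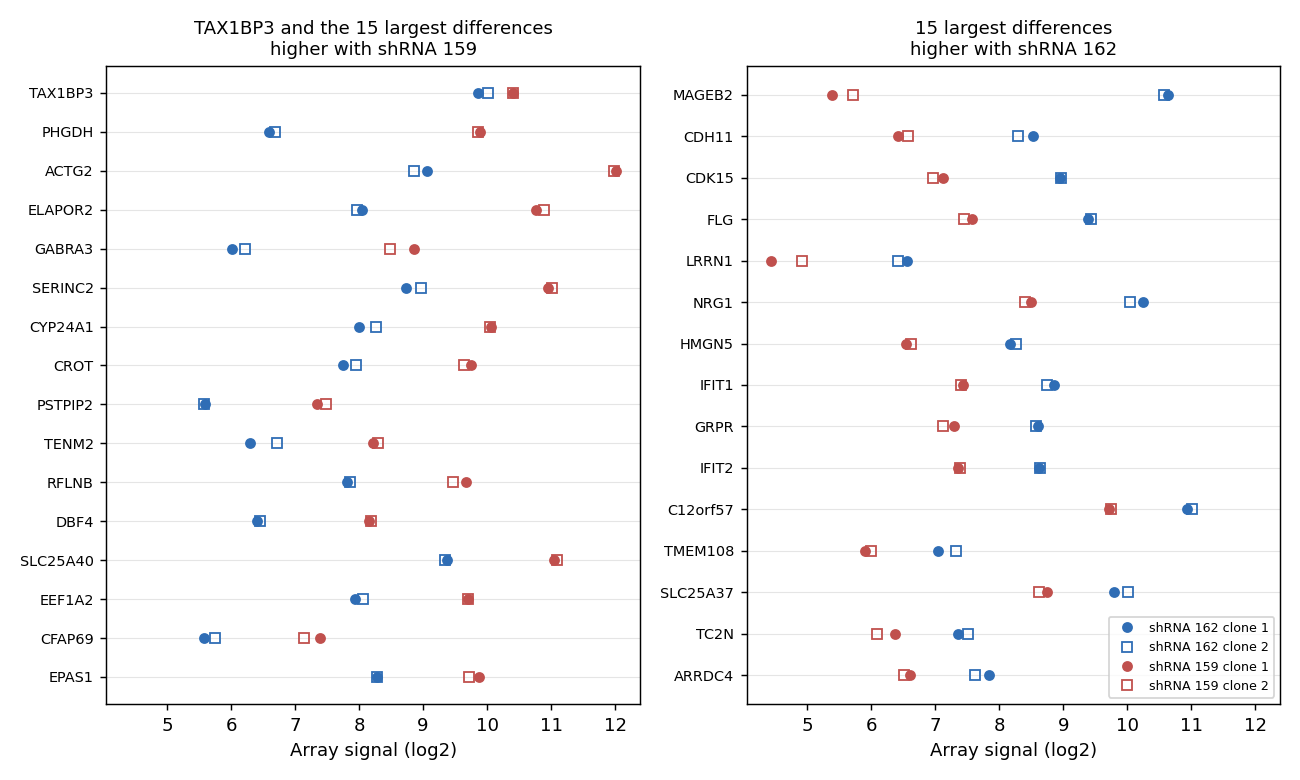
Array signal (log2, horizontal axis) of TAX1BP3 and of the 15 protein-coding genes with the largest difference in each direction, 1 symbol per clone (filled circles clone 1, open squares clone 2; blue shRNA 162, red shRNA 159). The clones of the hairpins do not overlap in any of these genes, which was part of the rule that chose the genes named by size. MAGEB2 runs from 10.64 and 10.57 down to 5.38 and 5.72, while TAX1BP3 spans 9.85 to 10.40.

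The largest difference in favour of shRNA 159 was in serine synthesis. PHGDH, the first enzyme of the pathway that makes serine from a glycolytic intermediate, was dim at 6.59 and 6.68 with shRNA 162 and stood at 9.88 and 9.86 with shRNA 159, a difference of 3.23 (SE 0.08, 9.41-fold in signal, limma adjusted p = 8.83e-06). The rest of the pathway did not share this. PSAT1, the transaminase that acts next, was slightly higher with shRNA 162 (11.25 and 11.24 against 10.91 and 10.76, difference -0.41, limma adjusted p = 0.0393), and PSPH, the last enzyme, did not pass (9.25 and 9.52 against 9.55 and 9.37). Of 25 measured genes of serine synthesis, folate one-carbon metabolism and the SERINC family, 3 were higher with shRNA 159 and 2 with shRNA 162, with a median difference of -0.09 beside -0.04 over all genes. The SERINC proteins are membrane proteins first described as carriers of serine into lipids. SERINC2 was at 8.73 and 8.96 against 10.95 and 11.01 (difference 2.13, 4.38-fold, limma adjusted p = 0.000171), but a dimmer row of the gene gave 7.36 and 7.21 against 7.47 and 7.88 and did not pass (difference 0.39, limma adjusted p = 0.151). SERINC3 was higher with shRNA 159 by 0.35 and SERINC5 was higher with shRNA 162 by 1.32-fold (difference -0.40). SERINC1 was level (10.02 and 10.02 against 10.06 and 10.00). Among 29 amino acid transporters, the taurine carrier SLC6A6 (-0.64) and the large neutral amino acid carrier SLC7A5 (-0.36) passed, both higher with shRNA 162.

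The smooth muscle actin ACTG2 was the second largest. It stood at 9.06 and 8.86 with shRNA 162 and at 12.01 and 11.98 with shRNA 159 (difference 3.04, SE 0.09, limma adjusted p = 1.92e-05). In smooth muscle and in fibroblasts that contract, such genes are switched on by SRF (serum response factor), which binds a DNA element called the CArG box with cofactors that sense unpolymerised actin. Of 26 measured contractile genes and SRF cofactors, 7 were higher with shRNA 159 and 0 with shRNA 162 (limma; at an unadjusted p under 0.05 it was 9 and 0), against 3.22% and 3.32% of all genes. The median difference of the list was 0.09, so most of its members differed little. TAGLN, the actin-binding transgelin, was 8.44 and 8.05 against 9.26 and 9.27 (difference 1.02, limma adjusted p = 0.00659). CALD1, caldesmon, was 9.08 and 8.71 against 9.74 and 9.73 (difference 0.84, limma adjusted p = 0.0121). MYL9, a regulatory light chain of myosin (0.57), the SRF-dependent adaptor TGFB1I1 (0.47), CSRP1 (0.44) and calponin CNN1 (0.44) also passed. ACTA2, the alpha smooth muscle actin, did not, at 7.73 and 7.09 against 7.19 and 7.52, nor did SRF itself (11.03 and 11.05 against 11.11 and 11.13). The count was 3 without shRNA 162 clone 1 and 3 without clone 2, and 6 and 7 without shRNA 159 clones 1 and 2. No member of the list lies in one of the chromosomal runs described further on.

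CArG boxes were looked for, on both strands, from 250 bases before to 50 bases after each gene start in the RefSeq table for GRCh38.p14. They are shown for the contractile genes because these passed in 1 direction. Of the 5 passing members with a window in the table, 2 held a CArG box, ACTG2 and TGFB1I1, as did 9 of 20 measured members with a window and 1.30% of all 34943 windows. A member was counted when any of its windows held a box, while the percentage is of single windows. A gene with several starts has more windows to match, so these shares are in unlike units. A match is a description of the letters and was not shown to be bound. The 250 bases before each start follow, 5′ to 3′ on the strand of the gene, with the CArG boxes in capitals.

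ACTG2 (chr2:73892758-73893007, plus strand): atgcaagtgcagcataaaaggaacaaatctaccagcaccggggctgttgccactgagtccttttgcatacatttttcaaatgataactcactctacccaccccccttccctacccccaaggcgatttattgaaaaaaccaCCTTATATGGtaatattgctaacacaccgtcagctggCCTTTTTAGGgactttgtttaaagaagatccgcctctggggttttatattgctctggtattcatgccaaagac

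TGFB1I1 (chr16:31472955-31473204, plus strand): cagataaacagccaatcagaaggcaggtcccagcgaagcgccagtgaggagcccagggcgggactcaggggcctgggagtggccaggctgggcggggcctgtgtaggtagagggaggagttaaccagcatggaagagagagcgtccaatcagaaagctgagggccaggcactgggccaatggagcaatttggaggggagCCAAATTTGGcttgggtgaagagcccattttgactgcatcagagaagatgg

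The ACTG2 window has 2 boxes, which begin 110 and 73 bases before the start, and the TGFB1I1 window has 1, at 51 bases before it.

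Of 44 actin assembly genes, 5 were higher with shRNA 159 and 2 with shRNA 162. The 5 became 3 without shRNA 159 clone 1, and 1 and 2 without shRNA 162 clones 1 and 2, where the other side had 1 and 1. LCP1, the bundling protein L-plastin and also a leukocyte marker, was 9.10 and 9.18 against 10.18 and 10.16 (difference 1.03, limma adjusted p = 0.00149); it was the 1 of 25 leukocyte markers that passed. CORO1A, a coronin (0.62), and ACTN1, an actinin that crosslinks actin (0.46), were higher with shRNA 159, while the formin DIAPH2 was higher with shRNA 162 (9.04 and 8.90 against 8.12 and 7.83, difference -0.99, limma adjusted p = 0.00523). Of 61 measured extracellular matrix genes, 12 were higher with shRNA 159 and 2 with shRNA 162, against 3.22% and 3.32% of all genes, so the shRNA 162 side was near the background. EFEMP1, a fibulin, was 8.40 and 8.50 against 9.64 and 9.55 (difference 1.15, limma adjusted p = 0.0012), and FN1, fibronectin, was 10.89 and 10.82 against 11.85 and 11.70 (difference 0.92, limma adjusted p = 0.00307). MATN2 (1.16), FBLN1 (0.99) and the crosslinking enzyme LOX (0.90) went the same way. THBS1 (-0.49) and LOXL2 (-0.68) were higher with shRNA 162, and LOXL2 lies in a run on chromosome 8. The count of 12 was 6 and 5 without shRNA 162 clones 1 and 2.

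Of 53 matrix proteases and inhibitors, 9 were higher with shRNA 159 and 3 with shRNA 162. The cathepsins CTSZ (0.55) and CTSD (0.54), the plasminogen activator PLAT (0.55) and MMP14 (0.51) were higher with shRNA 159, as were the inhibitors TIMP2 (0.51) and TIMP3 (0.46). The count of 9 was 1 without shRNA 162 clone 1 and 1 without clone 2, where it was 8 and 9 without shRNA 159 clones 1 and 2. ADAM9, a membrane protease (11.24 and 11.24 against 10.54 and 10.44, difference -0.75), was higher with shRNA 162 and lies in the chromosome 8 run. None of 17 genes of hyaluronan synthesis and binding passed (limma; 1 and 2 at an unadjusted p under 0.05, higher with shRNA 159 and 162).

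Adhesion receptors were split between the hairpins. Of 43 integrin and focal adhesion genes, 6 were higher with shRNA 159 and 4 with shRNA 162. Without shRNA 162 clone 1 these counts were 2 and 0, and without clone 2 they were 2 and 1. The integrin subunit ITGB3 was 7.35 and 7.55 against 8.25 and 8.18 (difference 0.77, limma adjusted p = 0.00665), and ITGB5 and ITGA3 were higher by 0.52 and 0.39. The laminin-binding subunits ITGA6 (-0.49) and ITGB4 (-0.52), with ITGA2 (-0.47) and the kindlin FERMT1 (-0.51), were higher with shRNA 162. Of 55 cadherins and junction genes, 3 were higher with shRNA 159 and 4 with shRNA 162 (3 and 2 without either shRNA 162 clone). CDH11, a cadherin of mesenchymal cells, was 8.52 and 8.30 with shRNA 162 and dim at 6.42 and 6.58 with shRNA 159 (difference -1.91, SE 0.11, limma adjusted p = 0.000291). The tight-junction gene CLDN11 was 8.16 and 8.14 against 9.40 and 9.45 (difference 1.27, limma adjusted p = 0.000521). ICAM1 (0.68) and CLDN4 (0.85) were higher with shRNA 159, and PCDHB14 (-0.98), CADM1 (-0.48) and CTNNA1 (-0.40) with shRNA 162. PCDHB14 was dim with shRNA 159.

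Other genes with a large surplus in the shRNA 159 clones came from unrelated families. GABRA3, a subunit of the GABA-A receptor, was dim at 6.01 and 6.21 and stood at 8.86 and 8.48 (difference 2.56, SE 0.14, limma adjusted p = 0.000262). It was the 1 gene of 20 in the GABA list that passed. CYP24A1, the enzyme that breaks down active vitamin D, was 7.99 and 8.26 against 10.06 and 10.04 (difference 1.92, limma adjusted p = 0.000276), and the retinoic acid receptor RARB was higher by 0.90 (2 of 23 vitamin D and retinoid genes). EPAS1, the hypoxia-inducible factor HIF-2 alpha, was 8.28 and 8.28 against 9.87 and 9.72 (difference 1.51, limma adjusted p = 0.000349). EEF1A2, a translation elongation factor normally found in muscle and neurons, was 7.93 and 8.06 against 9.70 and 9.70 (difference 1.70). The F-BAR protein PSTPIP2 (1.82), the teneurin TENM2 (1.75) and the filamin regulator RFLNB (1.74) completed this group. PSTPIP2, TENM2 and RARB were dim with shRNA 162. ADGRG1, an adhesion G protein-coupled receptor, was 8.29 and 8.42 against 9.66 and 9.66 (difference 1.30, limma adjusted p = 0.000611).

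With shRNA 162 the largest surplus was in MAGEB2, a cancer/testis antigen that is normally silent outside the germ line. It stood at 10.64 and 10.57 with shRNA 162 and was dim at 5.38 and 5.72 with shRNA 159, a difference of -5.05 (SE 0.12, 33.2-fold in signal, limma adjusted p = 8.83e-06). Among 42 measured cancer/testis genes 3 were higher with shRNA 162 and 1 with shRNA 159, so the family as a whole did not follow MAGEB2. MAGEH1 (-1.13) and CT83 (-0.50) were higher with shRNA 162, and SPANXB1 (0.44), which has near-identical copies, with shRNA 159. FLG, filaggrin of the outer skin, was 9.39 and 9.43 against 7.58 and 7.45 (difference -1.89, limma adjusted p = 0.000171), and the kinase CDK15 was 8.94 and 8.96 against 7.12 and 6.96 (difference -1.91). GRPR, the receptor of gastrin-releasing peptide, was 8.60 and 8.57 against 7.29 and 7.12 (difference -1.38, limma adjusted p = 0.000603). HMGN5, a nucleosome-binding protein, differed by -1.64 and was dim with shRNA 159. Among 44 chromatin genes 2 were higher with shRNA 159 and 3 with shRNA 162. SMARCA1 (1.10) was on the shRNA 159 side and was dim with shRNA 162.

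NRG1, a ligand of the ERBB receptors, was read by separate rows that agreed in direction. The row named by size gave 10.25 and 10.05 against 8.50 and 8.40 (difference -1.70), and another gave 9.89 and 9.96 against 8.82 and 8.80 (difference -1.11, limma adjusted p = 0.00104). NRG1 lies within the chromosome 8 run. Of 67 receptor tyrosine kinase, ephrin and EGF family genes, 5 were higher with shRNA 159 and 3 with shRNA 162, with FGF1 (0.67), IGFBP7 (0.79) and TGFA (0.62) on the shRNA 159 side. Of 38 MAPK feedback genes, 4 were higher with shRNA 162 (DUSP10 -0.52, SPRY1 -0.44, JUNB -0.43 and EGR1 -0.36) and 1 with shRNA 159. That 1 was ETV5, at 8.50 and 8.39 against 9.61 and 9.50 (difference 1.11), which lies in a chromosome 3 run. The 4 became 0 without either shRNA 162 clone.

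Interferon-stimulated genes that passed were all higher with shRNA 162. Such genes are switched on when a type I interferon activates a STAT and IRF complex that binds the ISRE, a DNA element searched for here as a pair of GAAA repeats with 2 bases between them. Of 60 measured genes, 8 were higher with shRNA 162 and 0 with shRNA 159 (limma; at an unadjusted p under 0.05 it was 17 and 7), against 3.32% and 3.22% of all genes, with a median difference of -0.06. IFIT1, which binds foreign RNA caps, was 8.85 and 8.74 against 7.43 and 7.40 (difference -1.38, SE 0.08, limma adjusted p = 0.000476). IFIT2 was 8.61 and 8.64 against 7.35 and 7.39 (difference -1.26, limma adjusted p = 0.000521), and IFIT3 was 8.09 and 8.17 against 7.51 and 7.34 (difference -0.70, limma adjusted p = 0.00772). The IFIT genes are neighbours on chromosome 10. OASL (-0.58), SAMD9 (-0.55), SAMD9L (-0.51), the thiol reductase IFI30 (-0.49) and PLSCR1 (-0.39) followed. Other well-known members were level: ISG15 stood at 8.25 and 8.43 against 8.28 and 8.49, MX1 was dim at 6.24 and 6.04 against 6.06 and 6.30, and IRF7 was 8.23 and 8.36 against 8.29 and 8.49. Scaling shifted the balance of the list, since after quantile normalization 7 were higher with shRNA 162 and 3 with shRNA 159. The count of 8 was 4 and 3 without shRNA 162 clones 1 and 2. IFNB1 was dim in all 4 clones (3.97 to 4.31).

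The ISRE letters were searched on both strands of the same windows. Of 6 passing members with a window, 4 held them: IFIT1, IFIT3, SAMD9 and PLSCR1. So did 33 of 50 measured members with a window and 3.57% of all single windows, in unlike units as for the CArG box. The share was therefore high in the whole list, including its members that did not differ. The windows of IFIT1 and of a start of IFIT3 are printed because these genes showed the largest differences among those with a match, with each match in capitals.

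IFIT1 (chr10:89392373-89392622, plus strand): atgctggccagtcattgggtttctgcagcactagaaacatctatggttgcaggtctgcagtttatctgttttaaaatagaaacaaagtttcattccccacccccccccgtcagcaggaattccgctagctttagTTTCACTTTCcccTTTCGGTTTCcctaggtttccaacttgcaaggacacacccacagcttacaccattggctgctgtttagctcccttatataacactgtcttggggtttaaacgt

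IFIT3 (chr10:89327747-89327996, plus strand): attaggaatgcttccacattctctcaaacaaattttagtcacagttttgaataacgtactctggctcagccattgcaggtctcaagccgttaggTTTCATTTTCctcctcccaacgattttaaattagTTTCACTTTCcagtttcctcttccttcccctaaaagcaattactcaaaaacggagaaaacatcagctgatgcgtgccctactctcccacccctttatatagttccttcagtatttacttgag

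Each window has 2 matches, which begin 116 and 103 bases before the start in IFIT1 and 156 and 122 bases before it in IFIT3, and all lie on the opposite strand, so that they read as TTTC pairs here.

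Genes of glycolysis and of cholesterol synthesis passed more often on the shRNA 162 side. Of 43 hypoxia response and glycolysis genes, 10 were higher with shRNA 162 and 3 with shRNA 159, against 3.32% and 3.22% of all genes, with a median difference of -0.15. The glucose transporter SLC2A3 was 8.97 and 8.95 against 8.24 and 8.08 (difference -0.80, limma adjusted p = 0.00451). DDIT4, an inhibitor of mTORC signalling, was 8.01 and 8.23 against 7.32 and 7.35 (difference -0.79, limma adjusted p = 0.00638), and the hexokinase HK2 was 10.68 and 10.72 against 10.11 and 10.07 (difference -0.61, limma adjusted p = 0.00739). The glycolytic genes PFKM (-0.44), TPI1 (-0.40), PFKFB3 (-0.39), ENO2 (-0.38) and LDHB (-0.47, in a chromosome 12 run) lay on the same side, with KDM3A (-0.54) and NDRG1 (-0.37). The 3 exceptions were the factors EPAS1 and HIF1A (difference 0.60, limma adjusted p = 0.00901) and LOX. HIF1A lies on chromosome 14, where 97 of 587 genes were higher with shRNA 159, and EPAS1 on chromosome 2, where 68 of 1155 were. SLC2A3, TPI1, ENO2 and LDHB lie on chromosome 12 in the stretch up to ETNK1. In that stretch, chosen after the values were seen, 80 of 235 genes were higher with shRNA 162. The count of 10 was 3 and 2 without shRNA 162 clones 1 and 2. The hypoxia response element ACGTGN occurred in 21.3% of all single windows, in 7 of 11 passing members with a window and in 21 of 38 measured members. Members were again counted over all their windows, which raises their share beside that of single windows.

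Of 31 measured genes of cholesterol synthesis and its regulation, 5 were higher with shRNA 162 and 1 with shRNA 159, with a median difference of -0.18. SQLE, squalene epoxidase, was 9.38 and 9.51 against 8.53 and 8.35 (difference -1.01, limma adjusted p = 0.00297), and HMGCS1 was 8.74 and 8.69 against 8.13 and 7.96 (difference -0.67, limma adjusted p = 0.00888). DHCR7 (-0.44), INSIG1, which retains the sterol sensor in the endoplasmic reticulum (-0.48), and STARD4 (-0.42) followed. SQLE is on chromosome 8. NPC2, which carries cholesterol out of lysosomes, lay on the other side at 11.31 and 11.17 against 11.96 and 11.98 (difference 0.73, limma adjusted p = 0.00568). Its gene is on chromosome 14. The count of 5 was 1 and 2 without shRNA 162 clones 1 and 2. The sterol response letters TCACNCCAC were in 0 of 5 passing members with a window and in 1.12% of all windows, which says only that these letters are not in those windows.

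**Figure D2:**
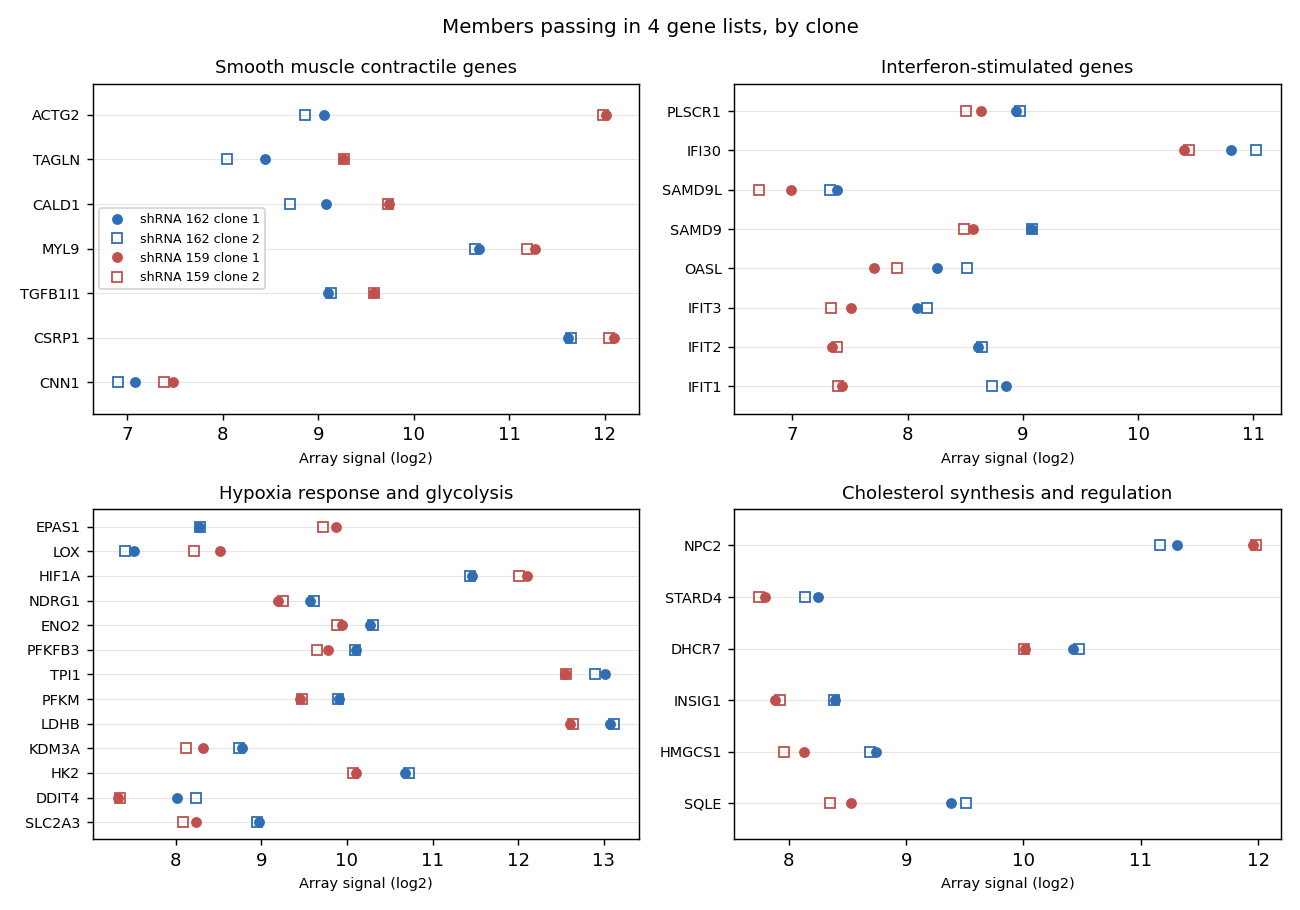
Array signal (log2, horizontal axes; each panel has its own range) of the members that passed in 4 gene lists, 1 symbol per clone (filled circles clone 1, open squares clone 2; blue shRNA 162, red shRNA 159). All 7 contractile genes are to the right with shRNA 159 and all 8 interferon-stimulated genes with shRNA 162; EPAS1, LOX and HIF1A and, among the sterol genes, NPC2 run against the rest of their panels.

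Signalling lists held passing members in both directions. Without either shRNA 162 clone, the shRNA 159 counts given next were 3 for TGF-beta and BMP, 1 for NF-kB and 1 for semaphorins. In the TGF-beta and BMP list, 5 of 52 were higher with shRNA 159, among them the coreceptor ENG (10.63 and 10.62 against 11.35 and 11.43, difference 0.76, limma adjusted p = 0.00401), FSTL1 (0.75), BMP4 (0.66) and its antagonist NOG (0.55), and 2 with shRNA 162, ID1 (-0.54) and SKIL (-0.51). In the YAP and TAZ list, 4 of 36 were higher with each hairpin: CCN2 (0.44), TEAD1 (0.45), AJUBA (0.38) and NUAK2 (0.38) with shRNA 159, and AMOT (-0.60), F3 (-0.39), IGFBP3 (-0.38) and TEAD4 (-0.38) with shRNA 162. Without shRNA 162 clone 1 or 2, the count on the shRNA 159 side was 0 by limma, against 8 members at an unadjusted p under 0.05 with all arrays. In the NF-kB and cytokine list, 4 of 53 were higher with shRNA 159 and 1, IL1A (7.39 and 7.58 against 6.63 and 6.70, difference -0.82), with shRNA 162. Both IL1A and AMOT were dim with shRNA 159. Of 43 semaphorin, plexin and slit genes 4 were higher with shRNA 159, SLIT2 (0.67) among them, and 1, PLXNB2 (-0.44), with shRNA 162. Of 50 Wnt genes 1 passed each way, WNT7B (0.42) and LRP6 (-0.62), the latter in a chromosome 12 run.

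Stress and growth lists were divided as well. In the NRF2 list, 4 of 36 were higher with shRNA 159, TXNRD1 (0.40) and TALDO1 (0.40) among them, and 2 with shRNA 162. The 4 became 0 by limma without shRNA 159 clone 1 and without either shRNA 162 clone, against 8 at an unadjusted p under 0.05 with all arrays. The transporter ABCC2 differed by -0.56, and GSR, which regenerates glutathione, was higher with shRNA 162 (10.90 and 10.86 against 10.00 and 10.05, difference -0.86, limma adjusted p = 0.00259) and lies in the chromosome 8 run. Of 41 p53 and apoptosis genes, 4 were higher with shRNA 162, and 3 of these are the neighbouring TRAIL receptors TNFRSF10A (-1.11), TNFRSF10D (-0.79) and TNFRSF10B (-0.72) of chromosome 8. Without the genes of runs that count was 1. For S phase and mitosis, 4 of 61 were higher with shRNA 159 and 2 with shRNA 162. Of the 4, DBF4 and ECT2 lie in runs, while RFC4 (0.61) and AURKA (0.49) do not. RFC4 still lies in the stretch of chromosome 3 from NCEH1 onward, where 73 of 149 genes were higher with shRNA 159. Among 45 ribosomal protein genes RPS7 (0.42) alone passed. The 24 genes of MHC antigen presentation gave 2, CD274 (8.89 and 8.75 against 9.91 and 9.79, difference 1.03, limma adjusted p = 0.00222) and PDCD1LG2 (0.80), both checkpoint ligands that are neighbours in the chromosome 9 run. In markers of other cells, 3 of 22 fibroblast, endothelial and pericyte genes were higher with shRNA 159 and 1 with shRNA 162, and 0 of 23 melanocyte and neural genes passed (limma; 0 and 1 at an unadjusted p under 0.05).

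**Figure D3:**
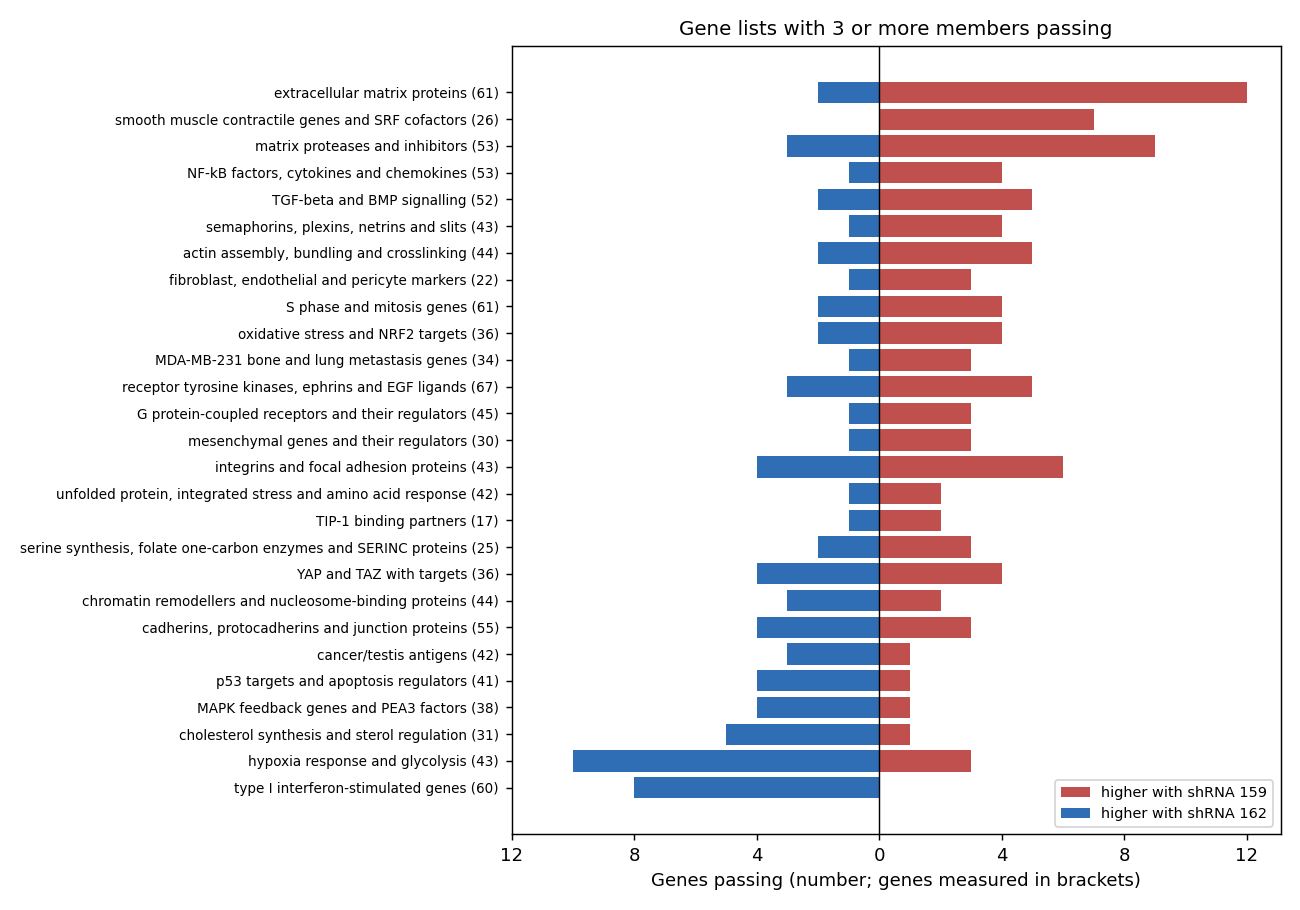
Number of genes that passed (horizontal axis) in each gene list with 3 or more passing members, drawn to the right for genes higher with shRNA 159 (red) and to the left for genes higher with shRNA 162 (blue); the number measured is in brackets. Matrix proteins (12 of 61) and matrix proteases (9 of 53) lie farthest to the right, and hypoxia and glycolysis (10 of 43) and interferon-stimulated genes (8 of 60) farthest to the left.

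Of 173 rows for miRNA genes, 5 passed (2.89%), all higher with shRNA 162 and all dim, where 3.35% of all tested rows were higher with shRNA 162, so the share is near the background. They were named after their values were seen. MIR10A, which lies in the HOXB cluster, was 4.51 and 4.18 against 3.44 and 3.64 (difference -0.80, SE 0.13, limma adjusted p = 0.015). MIR100 was 4.65 and 4.50 against 4.11 and 3.99 (-0.52), MIR148A 4.04 and 4.13 against 3.54 and 3.62 (-0.51), MIR95 3.38 and 3.38 against 2.79 and 2.97 (-0.50) and MIR10B 3.83 and 3.92 against 3.32 and 3.54 (-0.45). At such levels the rows are differences in array signal and do not give a level of mature miRNA. The mature sequences held in the RefSeq table for GRCh38.p14 are printed for the main arms of 4 of these genes, with the seed (bases 2 to 8) in capitals. The 4 seeds shown differ. MIR10A and MIR10B are relatives known to share a seed, and miR-10b-5p is not printed.

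hsa-miR-10a-5p (chr17:48579904-48579926, minus strand): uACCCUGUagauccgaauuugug

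hsa-miR-100-5p (chr11:122152275-122152296, minus strand): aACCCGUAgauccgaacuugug

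hsa-miR-148a-3p (chr7:25949922-25949943, minus strand): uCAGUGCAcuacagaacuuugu

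hsa-miR-95-3p (chr4:8005312-8005333, minus strand): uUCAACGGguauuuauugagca

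Other noncoding rows passed both ways, most of them higher with shRNA 162. Their share among all noncoding rows was not counted. TP53TG1 (1.17) and MIR646HG (0.68) were higher with shRNA 159, and both were dim with shRNA 162. TP53TG1 lies within the chromosome 7 run described further on. The long noncoding RNA UCA1, also named after its value was seen, was higher with shRNA 162 (11.02 and 11.33 against 10.25 and 10.09, difference -1.01, limma adjusted p = 0.00571), while 1 row of MALAT1 differed by -0.60 (8.44 and 8.39 against 7.94 and 7.69).

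The passing genes were not spread evenly over the genome. Gene order came from RefSeq's GRCh38.p14 annotation, in which 18388 genes with a row of their own were placed; of these 1201 passed (6.53%), 591 higher with shRNA 159 (3.21%) and 610 higher with shRNA 162 (3.32%). On chromosome 14, 97 of 587 genes were higher with shRNA 159 (16.5%) and 6 with shRNA 162. Among the 97 are HIF1A, NPC2, ACTN1, MMP14, BMP4 and AJUBA, which the lists above counted. On chromosome 8, 105 of 639 were higher with shRNA 162 (16.4%) and 9 with shRNA 159. Chromosome 12 gave 96 of 982 higher with shRNA 162 (9.78%) and 11 with shRNA 159, and chromosome 3 gave 93 of 1011 higher with shRNA 159 (9.20%) and 30 with shRNA 162. These 4 chromosomes, picked for their shares after the values were seen, held 447 of the 1201 passing genes, 37.2%, and 17.5% of the placed genes. That gap follows in part from the choice. Chromosome 2 gave 68 of 1155 genes higher with shRNA 159 (5.89%) and 25 with shRNA 162. ACTG2, EPAS1, EPCAM, EFEMP1, FN1 and TGFA are among the 68, and HK2, KDM3A, ITGA6 and IL1A among the 25. The median difference was 0.15 on chromosome 14 and -0.12 on chromosome 8, beside -0.04 over all placed genes. The runs themselves are described with no test, since neighbours share their clones and their place.

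**Figure D4:**
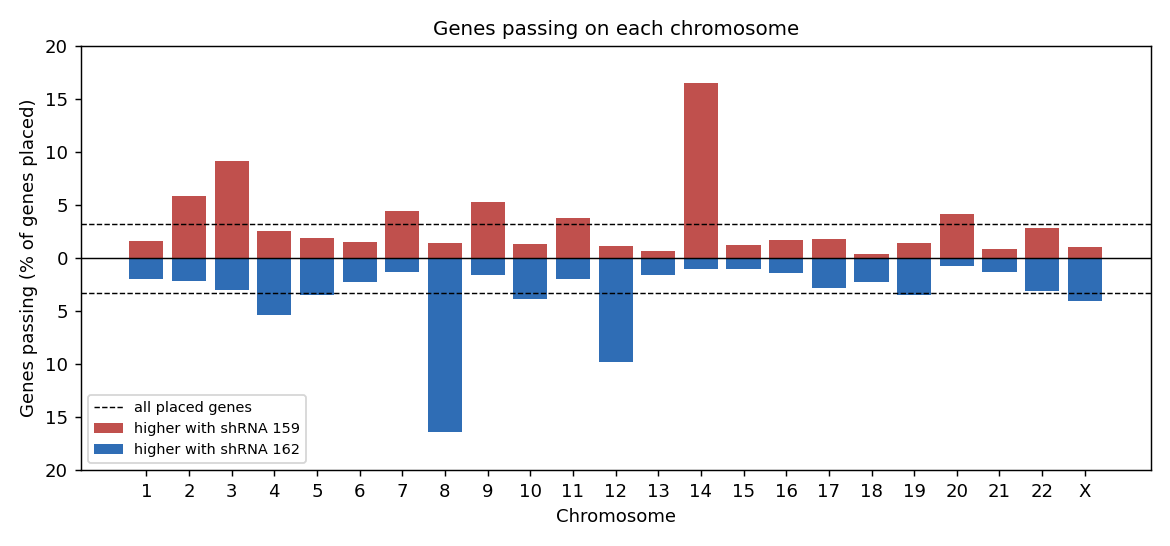
Share of placed genes (vertical axis, percent) that passed on each chromosome, upward for genes higher with shRNA 159 (red) and downward for genes higher with shRNA 162 (blue); dashed lines mark the shares over all placed genes, 3.21% and 3.32%. Chromosome 14 stands out upward at 16.5% and chromosome 8 downward at 16.4%.

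Windows of 15 neighbouring genes in which 8 or more passed in the same direction were joined into 11 runs. The runs hold 339 genes and 197 of the passing genes (16.4% of the passing genes and 1.84% of the placed genes). The gap between these shares follows from the rule, which picks windows rich in passing genes, and is no measure of clustering. Of the runs, 5 were higher with shRNA 159 and 6 with shRNA 162, and no gene inside a run passed in the opposite direction. In the fit over all rows of the table no run formed (0 genes), and without shRNA 162 clones 1 and 2 the runs held 56 and 55 passing genes. The strongest is on chromosome 7, from SEMA3E to GTPBP10: 20 of 24 genes passed and the median difference was 0.89. It holds ELAPOR2 (8.04 and 7.96 against 10.76 and 10.89, difference 2.82, SE 0.09, limma adjusted p = 1.92e-05), the peroxisomal acyltransferase CROT (1.84), DBF4, which activates a replication kinase (1.73), the mitochondrial carrier SLC25A40 (1.71) and CFAP69 (1.60), so 5 of the 15 largest differences with shRNA 159 belong to this one stretch. The drug efflux pump ABCB1 (6.47 and 6.14 against 7.03 and 7.12, difference 0.77, limma adjusted p = 0.013) lies among them. DBF4, CFAP69 and ABCB1 were dim with shRNA 162.

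On chromosome 3 the run from NCEH1 to DNAJB11 had 40 of 68 genes passing, with 64 of 68 above 0, and the run from PCYT1A to DRC9 had 17 of 23. TMEM41A (0.97), LIPH (0.98), DCUN1D1 (0.91), UBXN7 (0.97) and PIGX (0.87) are among them. Of the 149 genes from NCEH1 to the end of the chromosome, a stretch chosen after the values were seen, 73 were higher with shRNA 159 and 0 with shRNA 162, and their median difference was 0.41, against 20 and 30 of the other 862 genes and a median of -0.06. On chromosome 9 the run from PLPP6 to PSIP1 had 20 of 35 genes passing, with NFIB (9.09 and 9.08 against 10.49 and 10.24, difference 1.28, limma adjusted p = 0.00149), RIC1 (0.93) and MPDZ (0.85), a scaffold with many PDZ domains. On chromosome 14 the run from SNX6 to NKX2-1 had 8 of 15, with MBIP at 0.82, and passing genes lay along the rest of the chromosome as well.

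On chromosome 8 the run from CLU to ADAM2 had 40 of 69 genes passing with shRNA 162, 66 of 69 below 0 and a median difference of -0.51, and the run from SLC39A14 to DOCK5 had 13 of 26. The Werner helicase WRN (8.54 and 8.60 against 7.71 and 7.53, difference -0.95), MAK16 (-1.11), the elongator subunit ELP3 (-1.04), ENTPD4 (-1.06) and the mitochondrial iron importer SLC25A37 (-1.22, with a brighter row at -1.02) are in these. On chromosome 12 the runs from KLRA1P to MANSC1 (11 of 23), WBP11 to SLC15A5 (8 of 14) and PLEKHA5 to ETNK1 (10 of 20) lie close together. Many of their passing genes were dim in all 4 clones. These were KLRA1P, TAS2R13, TAS2R14, TAS2R19, TAS2R20 and TAS2R31 in the run from KLRA1P. In the run from WBP11 they were C12orf60, SMCO3, MGP, ERP27 and SLC15A5, and in the run from PLEKHA5 they were IAPP and GYS2. Of the 235 genes up to ETNK1, again a stretch chosen after the values were seen, 80 were higher with shRNA 162 and 1 with shRNA 159 (median -0.28), against 16 and 10 of the other 747 (median -0.04). On chromosome 19, 10 of 22 genes from FKBP8 to MAU2 passed with shRNA 162, led by NR2C2AP (-0.70). The files hold no measure of DNA copy number.

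**Figure D5:**
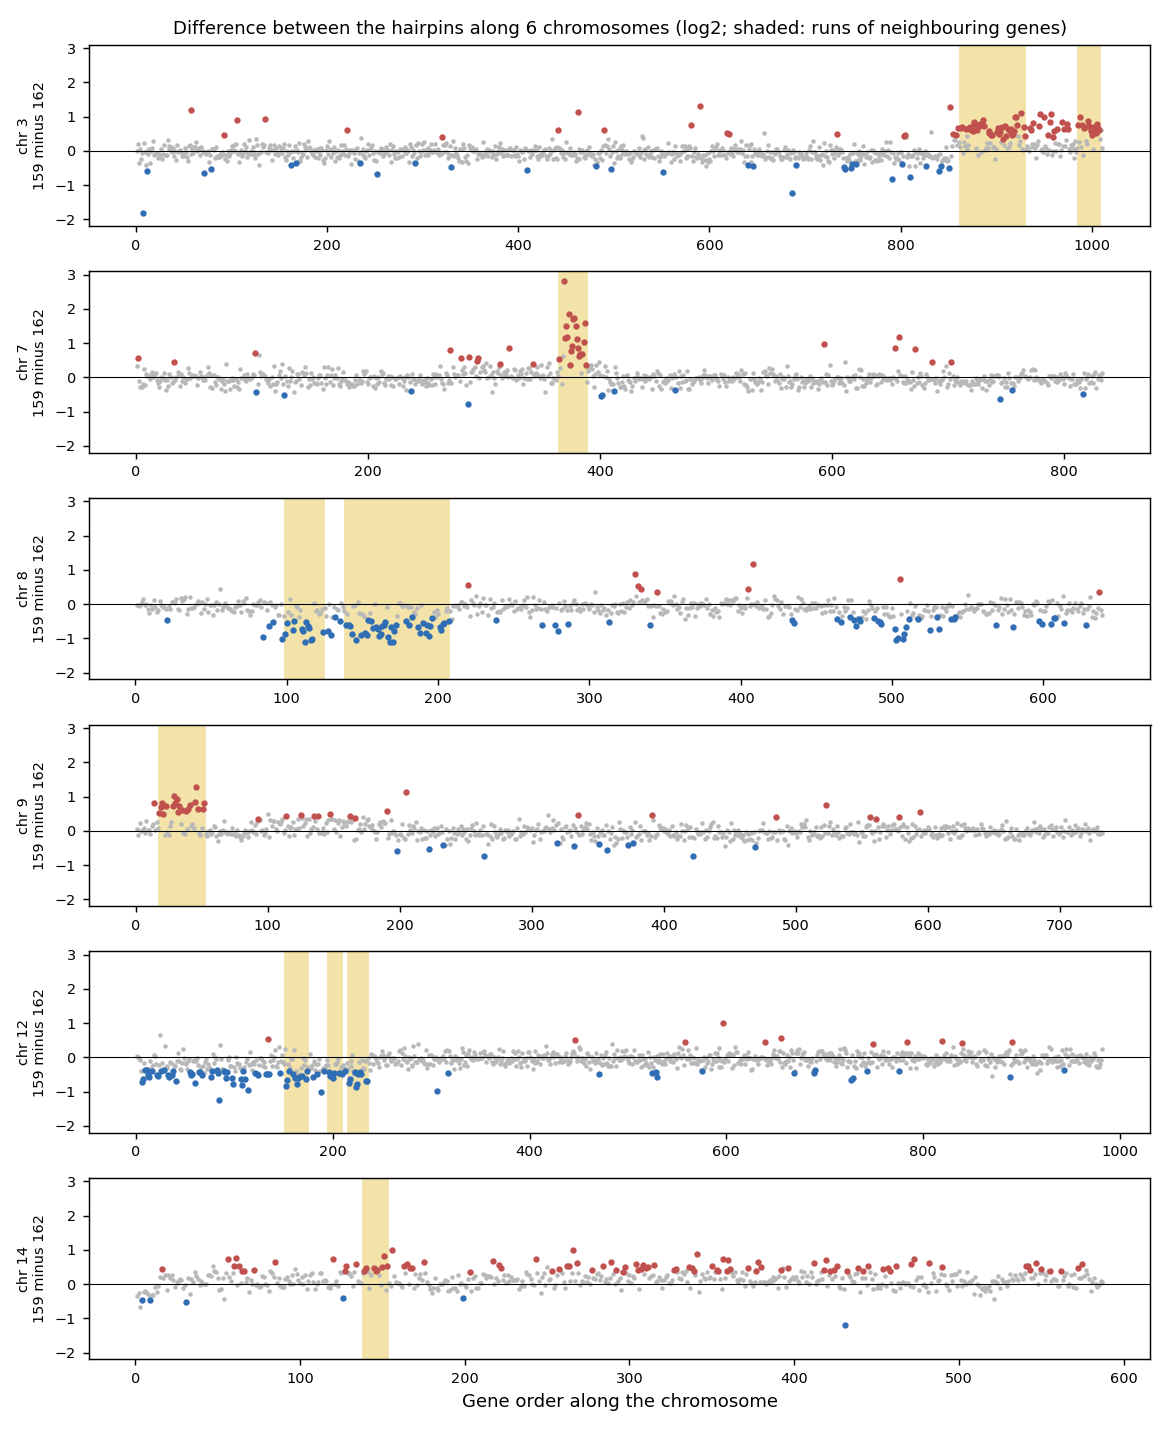
Difference between the hairpins (shRNA 159 minus shRNA 162, log2, vertical axes) of each placed gene against its order along 6 chromosomes, with genes that passed in red (higher with shRNA 159) and blue (higher with shRNA 162), other genes in grey and the runs shaded. The chromosome 7 run reaches 2.82, the chromosome 8 runs have medians of -0.51 and -0.44, and on chromosome 12 blue points fill the start of the gene order.

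Without the genes of the runs, an alternative added after the data were seen, 533 rows were higher with shRNA 159 and 616 with shRNA 162, and 67 of the 89 rows with a 2-fold difference remained. The contractile, interferon and cholesterol lists have 0 members in runs, so this alternative could not change them. The matrix count on the shRNA 159 side was 12 as before, and the hypoxia and glycolysis count on the shRNA 162 side went from 10 to 9. SLC2A3, TPI1 and ENO2 lie outside the runs but inside the chromosome 12 stretch up to ETNK1, so this alternative kept them. Clones of the same hairpin differed little beyond single genes. PIGF differed by 1.10 between the shRNA 159 clones, and 1 row of ARPP19 was 9.07 in shRNA 162 clone 1 and 7.56 in clone 2, while both shRNA 159 clones held 9.40 and 9.41. All 30 genes named by size passed without any single array, whereas 71 of the 166 named rows failed to pass without at least 1 array; the largest absolute difference among those was 0.80, and 95 rows passed throughout. In 13 of the 30 the lower group was dim.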

How the data were processed

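The authors deposited log2 signals per probe set, made from the scanned arrays with the Affymetrix Exon Array Computational Tool per the series' design text. Its settings are not stated in what was used, and the log2 scale was read from the span of the data. The number of arrays limits the precision. Of 33297 rows, 19460 name 1 gene symbol, 1754 several and 12083 none, and the 21214 with a symbol were tested. The 4 arrays were fitted with limma 3.58.1 (R 4.3.3; lmFit and eBayes, 2 residual and 5.345 prior degrees of freedom) with Benjamini-Hochberg adjustment, checked on simulated data. Per gene, lists count the 18417 genes with a row of their own. Named genes were TAX1BP3, the 15 protein-coding genes with the largest passing difference each way, up to 4 passing genes with the smallest p per list and the largest difference per run, and the 4 rows per hairpin that differ most between its clones. Further members were named after their values were seen. Members and lists were chosen with earlier results of these data known. Alternatives changed the rows, the normalization, the block, the variance trend and the arrays. Same-numbered clones were checked for pairing, and their deviations correlated at -0.028, so the numbers do not pair them.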

Additional observations from a re-analysis of the deposited data

How the results depend on the processing

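Of the 166 named rows besides TAX1BP3, none changed direction in the alternatives that held them, while calls and counts did not hold. Genes given beside these without passing, such as PSPH and ACTA2, were not followed for direction. Fitting all rows of the table gave 65 passing rows, 39 higher with shRNA 159 and 26 with shRNA 162, with 2.957 prior degrees of freedom; TAX1BP3 kept its difference of 0.47 (limma adjusted p = 0.131) and 0 genes lay in runs. Only brighter rows gave 2289 (1128 and 1161, and 57 with a 2-fold difference), and a variance trend gave 2900 (1342 and 1558). Passing genes inside runs, 197 in the fit described, were 326 with all 6 arrays, 781 with brighter rows and 580 with the variance trend. With the replicate number as a block, 1859 rows passed, 357 genes lay in runs and all 1352 were shared, although the pairing check did not pair the clones. Leaving out 1 array gave 399 to 1456 passing rows, 197 to 701 higher with shRNA 159, 198 to 886 higher with shRNA 162, 92 to 95 with a 2-fold difference, 55 to 197 in runs, and 0.39 to 0.55 for TAX1BP3. Of the 1352 rows, 374 and 402 also passed without shRNA 162 clones 1 and 2, where the spread came from the shRNA 159 clones alone. The lone clone is then assumed to vary like the others. Quantile normalization gave 1334 rows, of which 1192 were shared. Of the 1334, 755 were higher with shRNA 159 and 579 with shRNA 162, so the side with more passing rows changed. Leaving out the genes of runs, and other sets of rows for TAX1BP3 and the runs, were added after the data were seen. Beyond these fits, the causes were not tested.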

Other observations

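Rows that name several genes were left out of the gene counts. Both rows shared by MAGEA6 and MAGEA3, near-identical cancer/testis antigens whose signals cannot be told apart, were higher with shRNA 159, opposite to MAGEB2. One gave 6.88 and 6.53 against 9.07 and 8.78 (difference 2.22, limma adjusted p = 0.000553) and the other 7.97 and 7.70 against 9.24 and 8.96 (difference 1.27, limma adjusted p = 0.00337). TERC, the RNA template of telomerase, was 10.19 and 9.89 against 9.53 and 9.40, higher with shRNA 162. ZNF542P, a zinc finger pseudogene, was dim in all 4 clones, at 5.35 and 5.42 with shRNA 162 and 6.75 and 6.45 with shRNA 159 (difference 1.22).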
